A study of Mus musculus with 6 samples.

Results

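The comparison described here set the left ventricle of mice after 4 weeks of transverse aortic constriction (4 W TAC) against that of sham-operated mice (Sham). All mice were male C57BL/6 wild types, a common inbred strain, and the sources used here do not give their ages. In 4 W TAC mice the aortic arch had been tied around a 28-gauge needle, which narrows it and loads the left ventricle with pressure, whereas Sham mice had the operation without the narrowing. The members were the 4 arrays of these groups (2 for 4 W TAC and 2 for Sham) of 6 in all, 1 mouse per array, and the 14996 transcript clusters (rows) with exactly 1 gene symbol of 23332 rows in all, which name 14860 genes. The other 2 arrays came from mice after 1 week of constriction (1 W TAC). They entered the estimate of the spread and serve for the comparison of the time points. How long after the sham operation the control hearts were taken is not stated in the sources used here, and the single Sham group was the control for both times. Values are log2 signals by robust multi-chip analysis (RMA) as deposited, so a difference of 1 is a 2-fold difference.

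The tissue is a mixture. Cardiomyocytes hold most of its RNA, and fibroblasts, endothelial cells, smooth muscle cells and macrophages the rest, so in these whole-tissue signals more cells of a type and more RNA per cell cannot be told apart. Under lasting pressure load the ventricular wall thickens. Cardiomyocytes then re-express genes of the fetal heart, such as those of the natriuretic peptides and of skeletal alpha-actin, fibroblasts lay down collagen and the glycoproteins that organise it, and the use of fatty acids for ATP declines. The defining cardiomyocyte markers were near the top of the signal range in all 4 arrays: Myl2, the ventricular myosin light chain, had 13.12 and 13.15 in 4 W TAC and 13.28 and 13.21 in Sham, and Mb, myoglobin, had 13.20 and 13.18 in 4 W TAC and 13.26 and 13.26 in Sham.

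No row passed the test across all rows. With limma, which fits a mean per group and borrows information on the spread across rows, 0 of 23332 rows (0%) had a Benjamini-Hochberg adjusted p under 0.05, and the smallest adjusted p was 0.236 for Thbs4. In a fit of the 14996 rows with 1 gene symbol alone, Thbs4 was the 1 row that passed (limma adjusted p = 0.00585). An unadjusted p under 0.05 was reached by 1330 rows (594 with higher and 736 with lower signals in 4 W TAC), where 5% of all rows is 1167. In the following, genes are therefore described by their values, and "passed at an unadjusted p" means this limma p under 0.05 with no correction for the number of rows. Among the 14860 genes, 2.42% passed so with the higher signal in 4 W TAC and 1.39% with the lower one. The groups were apart, with both 4 W TAC arrays above both Sham arrays, for 17.3% of genes, and with both below for 12.9%. A difference of 2-fold or more with the groups apart was found for 85 genes above Sham (0.572%) and 25 genes below it (0.168%). Of these, 61 genes above and 8 below Sham had a mean signal at or above the median of all rows (5.37). Of the remaining 24 above and 17 below, which had lower signals, 14 and 9 were olfactory receptor genes. The median log2 difference over all genes was 0.04, and their middle range, from the lower to the upper quartile, ran from -0.10 to 0.17. With this median above 0, more genes lay above Sham than below it. The share of all genes on either side of 0 is not given here. Counts of list members above or below Sham therefore only describe the members.

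**Figure D1:**
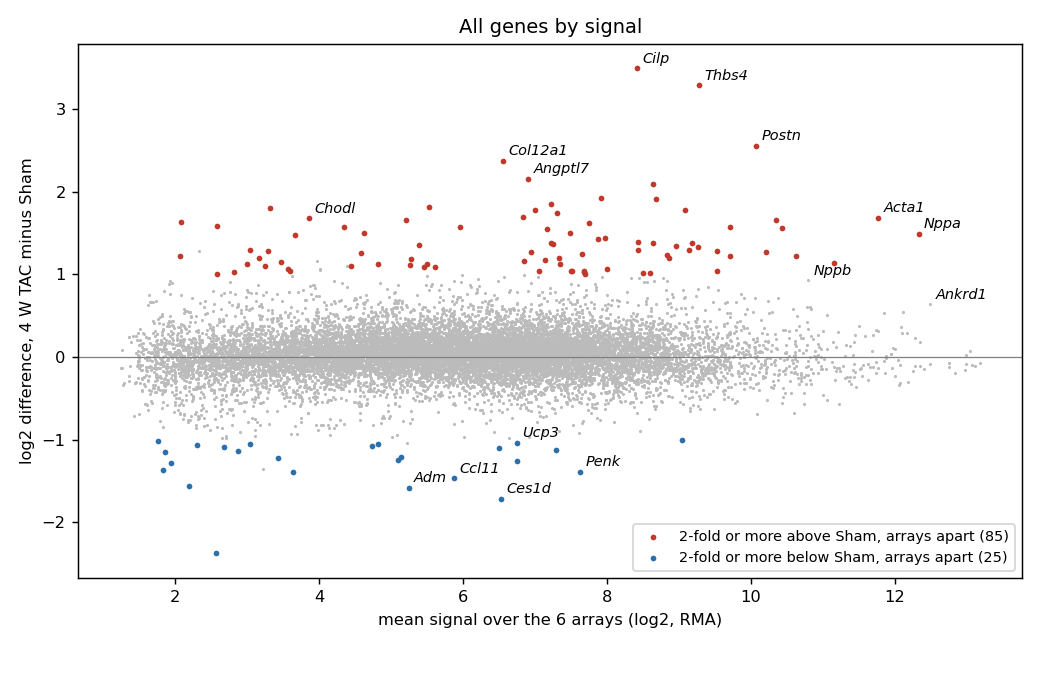
Log2 difference of 4 W TAC minus Sham (vertical axis) against the mean signal over the 6 arrays (horizontal axis, log2) for 14860 genes, one grey point each. Coloured points are the 85 genes at least 2-fold above Sham and the 25 at least 2-fold below it whose arrays did not overlap; at high signals the points far from 0 lie almost all above it, with Cilp, Thbs4 and Postn at the top.

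The genes farthest above Sham were Cilp and Thbs4, which encode proteins of the extracellular matrix, and other matrix genes were among those that followed. Named here are the 15 genes with the largest differences in each direction among those with the groups apart and a mean signal at or above the median. Cilp, a matrix protein first described in cartilage, had signals of 8.79 and 10.18 in 4 W TAC and 6.27 and 5.71 in Sham, 11.3-fold higher in 4 W TAC (log2 difference 3.50, standard error 0.53, limma adjusted p = 0.573). Thbs4, thrombospondin 4, an adhesive glycoprotein that binds calcium and collagen, had 10.06 and 10.47 in 4 W TAC and 7.16 and 6.79 in Sham (3.29, standard error 0.23), or 9.78-fold. The 2 mice of each group lay closer together for Thbs4 than for Cilp, where the 4 W TAC arrays differed from each other by more than a log2 unit. Postn, periostin, a matricellular protein of activated fibroblasts, had 9.96 and 10.82 in 4 W TAC and 8.06 and 7.61 in Sham (5.88-fold). Col12a1, a collagen that lies on the surface of collagen fibrils, had 6.57 and 7.61 in 4 W TAC and 4.84 and 4.59 in Sham (5.19-fold), and Col8a1, a short-chain collagen, had 7.97 and 8.37 in 4 W TAC and 6.32 and 6.17 in Sham (3.80-fold). For each of these 5 genes the lower 4 W TAC array was 1.65 to 2.90 log2 units above the higher Sham array.

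The other 10 of the 15, among them Angptl7 and Sfrp2 with larger differences than Col8a1, were of mixed function. Sfrp2, a secreted modulator of Wnt signalling, had 8.74 and 9.28 in 4 W TAC and 7.09 and 6.75 in Sham. Mfap5, Mfap4 and Ltbp2, which are associated with the microfibrils of elastic fibres, were 3.77-, 3.42- and 3.35-fold above Sham. Comp, a thrombospondin known from cartilage and tendon, had 7.48 and 8.68 in 4 W TAC and 6.39 and 6.06 in Sham, and Pamr1, a secreted protein with a protease-like domain, had 6.92 and 7.88 in 4 W TAC and 5.83 and 5.59 in Sham. Fibin, a small secreted protein, had 6.94 and 8.62 in 4 W TAC and 6.33 and 5.67 in Sham, so the 4 W TAC mice differed from each other almost as much as the groups did. Angptl7, a secreted protein of the angiopoietin-like family, had 7.55 and 8.97 in 4 W TAC and 6.68 and 5.52 in Sham (4.47-fold, log2 standard error 0.57), and Dio2, the deiodinase that makes active thyroid hormone, had 6.23 and 6.97 in 4 W TAC and 5.06 and 4.51 in Sham (3.52-fold). The remaining gene, Acta1, is a cardiomyocyte gene and is described below. All 15 passed at an unadjusted p, and for all 15 the second 4 W TAC mouse had the higher signal of the pair.

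Below Sham, the differences were smaller. Ces1d, a carboxylesterase that hydrolyses lipids, had signals of 6.31 and 6.09 in 4 W TAC and 8.09 and 7.74 in Sham, 3.28-fold lower in 4 W TAC (log2 difference -1.72, standard error 0.33, limma adjusted p = 0.575). Ccl11, the chemokine eotaxin, had 5.65 and 4.99 in 4 W TAC and 7.10 and 6.48 in Sham (2.77-fold lower), and Efemp1, a fibulin of elastic tissue, had 6.57 and 6.02 in 4 W TAC and 7.66 and 7.45 in Sham (2.39-fold lower). Penk, which encodes the precursor of enkephalins, had 7.96 and 6.30 in 4 W TAC and 8.58 and 8.46 in Sham, so most of its difference came from 1 mouse. Several of the 15 act in mitochondria or energy metabolism. Ucp3, an uncoupling protein of muscle mitochondria, had 6.84 and 6.48 in 4 W TAC and 7.68 and 7.72 in Sham (2.06-fold lower), and Gstk1, a glutathione transferase of mitochondria and peroxisomes, had 9.09 and 8.70 in 4 W TAC and 9.74 and 10.07 in Sham (2.01-fold lower). Ndufa1, a subunit of complex I of the respiratory chain, had 7.19 and 7.07 in 4 W TAC and 8.19 and 7.91 in Sham. Fbp2, the muscle fructose bisphosphatase, had a log2 difference of -0.91 and Etfbkmt, a methyltransferase that acts on an electron transfer flavoprotein, of -0.91. The secreted phospholipase Pla2g5 (-0.99), the galectin Lgals4 (-0.98), the amylase Amy1 (-1.10), the interferon-activated gene Ifi205 (-0.97), 0610009B22Rik (-1.13) and Hopx, a transcriptional cofactor of cardiomyocytes (-0.90), complete the 15. Of these, 14 passed at an unadjusted p, and Ifi205 did not.

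**Figure D2:**
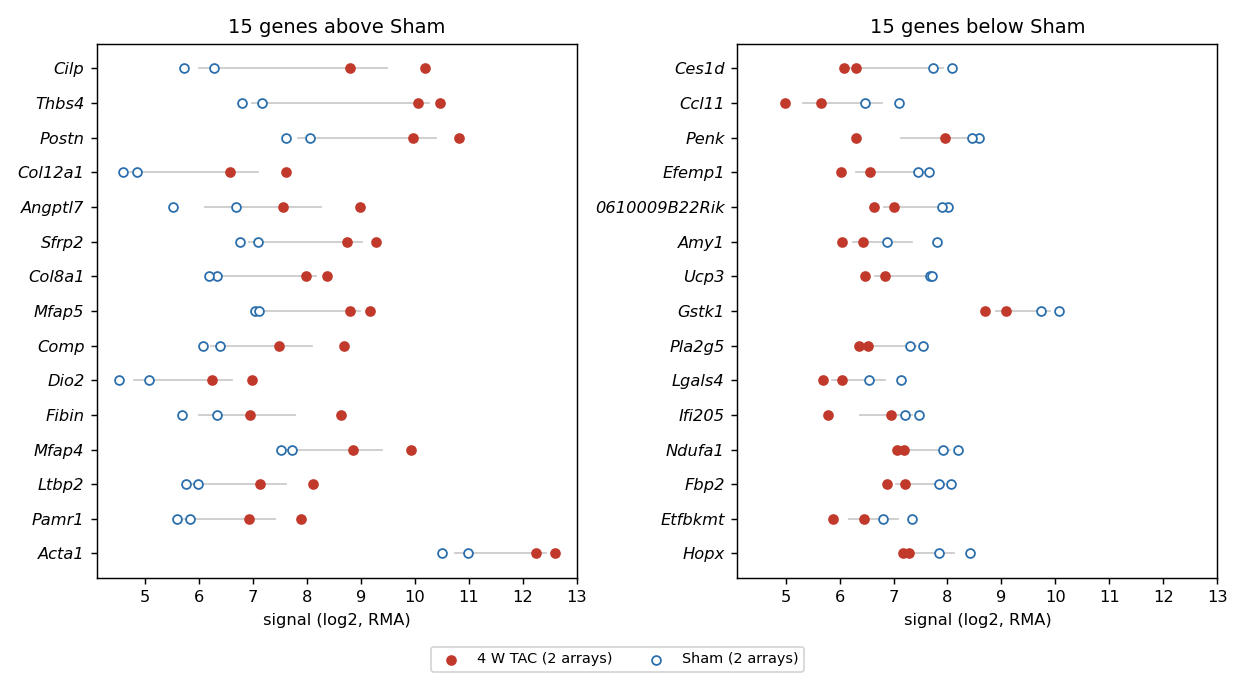
Log2 RMA signal (horizontal axis) on each 4 W TAC array (filled red) and each Sham array (open blue) for the 15 genes farthest above Sham (left) and the 15 farthest below it (right), with a grey line between the group means. By the rule that chose them the groups do not overlap; the gap between the nearest arrays of the groups runs from 0.61 to 2.90 log2 units on the left and from 0.26 to 1.43 on the right.

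Matrix genes were above Sham as a group. Over 6 lists of collagens, collagen-processing enzymes, matricellular proteins, proteoglycans, basement membrane proteins and proteases, 115 of 126 measured genes had a difference above 0, 53 passed at an unadjusted p above Sham and 2 below it, where 2.42% and 1.39% of all genes did. Of the 61 genes at least 2-fold above Sham with a signal at or above the median, 27 were in these lists. No row passed the adjusted test, so these counts describe the 4 arrays.

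All 24 measured collagen chain genes had a positive difference, with a median of 0.64 against 0.04 over all genes, and 14 passed at an unadjusted p. The fibrillar chains, which form the load-bearing fibres, had nearly equal differences: Col1a1 had 10.19 and 10.55 in 4 W TAC and 8.64 and 8.97 in Sham (2.96-fold), Col1a2 had 9.90 and 10.29 in 4 W TAC and 8.81 and 8.83 in Sham (2.42-fold), and Col3a1 had 9.0 and 9.77 in 4 W TAC and 7.99 and 8.21 in Sham (2.44-fold). Col14a1, which like Col12a1 decorates fibrils, was 2.69-fold and Col15a1, a collagen near basement membranes, 2.29-fold above Sham. The network-forming chains of basement membranes were nearer to Sham, with 0.72 for Col4a1 and 0.58 for Col4a2 on the log2 scale, and the smallest difference was that of Col4a6 (0.01). Taking the median over the 24 genes on each array relative to the Sham mean, the 4 W TAC arrays stood at 0.56 and 0.73 and the Sham arrays at -0.03 and 0.03.

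Of 25 matricellular and adhesive glycoproteins, 24 were above Sham (median 0.67) and 16 passed at an unadjusted p. Beside Cilp, Thbs4, Postn and Comp, these included Ccn2, the connective tissue growth factor (10.28 and 11.00 in 4 W TAC and 8.98 and 8.98 in Sham), Fn1, fibronectin (9.29 and 9.86 in 4 W TAC and 8.06 and 7.94 in Sham), and Thbs1, thrombospondin 1, which activates latent TGF-beta (8.48 and 9.37 in 4 W TAC and 7.81 and 7.36 in Sham). Sparc, a collagen-binding glycoprotein, was 2.20-fold and Tnc, tenascin C, 1.92-fold above Sham. The exception was Ccn3, which had 6.47 and 6.01 in 4 W TAC and 7.28 and 6.49 in Sham and did not pass. Among the proteoglycans and elastic fibre genes (25 measured, median 0.47), 12 passed at an unadjusted p above Sham and 1, Efemp1, below it. The small leucine-rich proteoglycans Aspn and Bgn were 2.61- and 2.34-fold above Sham, and Vcan, the large proteoglycan versican, was 2.05-fold above it. Without the first mouse of both groups the matricellular median was 1.01 and the proteoglycan median 0.71.

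Genes of collagen crosslinking, proteolysis and attachment had smaller medians than the collagens. Of 16 measured crosslinking and folding genes, 15 were above Sham (median 0.41) and 5 passed at an unadjusted p, among them the lysyl oxidase-like genes Loxl2 (6.72 and 7.84 in 4 W TAC and 6.12 and 5.90 in Sham) and Loxl1 (8.38 and 8.89 in 4 W TAC and 7.55 and 7.70 in Sham). Of 25 proteases and inhibitors (median 0.20), Mmp2, a gelatinase, was 2.59-fold, Adamtsl2, a secreted ADAMTS-like protein, 2.60-fold and Timp1, a metalloproteinase inhibitor, 2.58-fold above Sham. Timp4, an inhibitor of the same family that is abundant in heart, went the other way, with 8.17 and 8.07 in 4 W TAC and 8.65 and 8.71 in Sham (log2 difference -0.56). The 12 laminin and basement membrane genes had a median of 0.22, with Nid1, nidogen, at 0.82, and the 15 integrins, the cell receptors for matrix, a median of 0.23, with Itga9 (0.72) and Itga11 (0.68) passing at an unadjusted p. Itgb1, the beta chain that most of these receptors share, had 10.37 and 10.90 in 4 W TAC and 10.42 and 10.21 in Sham, and the groups overlapped. Without the second 4 W TAC mouse the medians were 0.26 for crosslinking and folding, 0.125 for proteases, 0.07 for basement membrane and 0.055 for integrins. Without the first mouse of both groups the first 3 of these were 0.62, 0.38 and 0.41, without the first Sham mouse that of proteases was 0.32, and that of basement membrane was 0.34 without the first 4 W TAC mouse and 0.115 without the second Sham mouse.

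**Figure D3:**
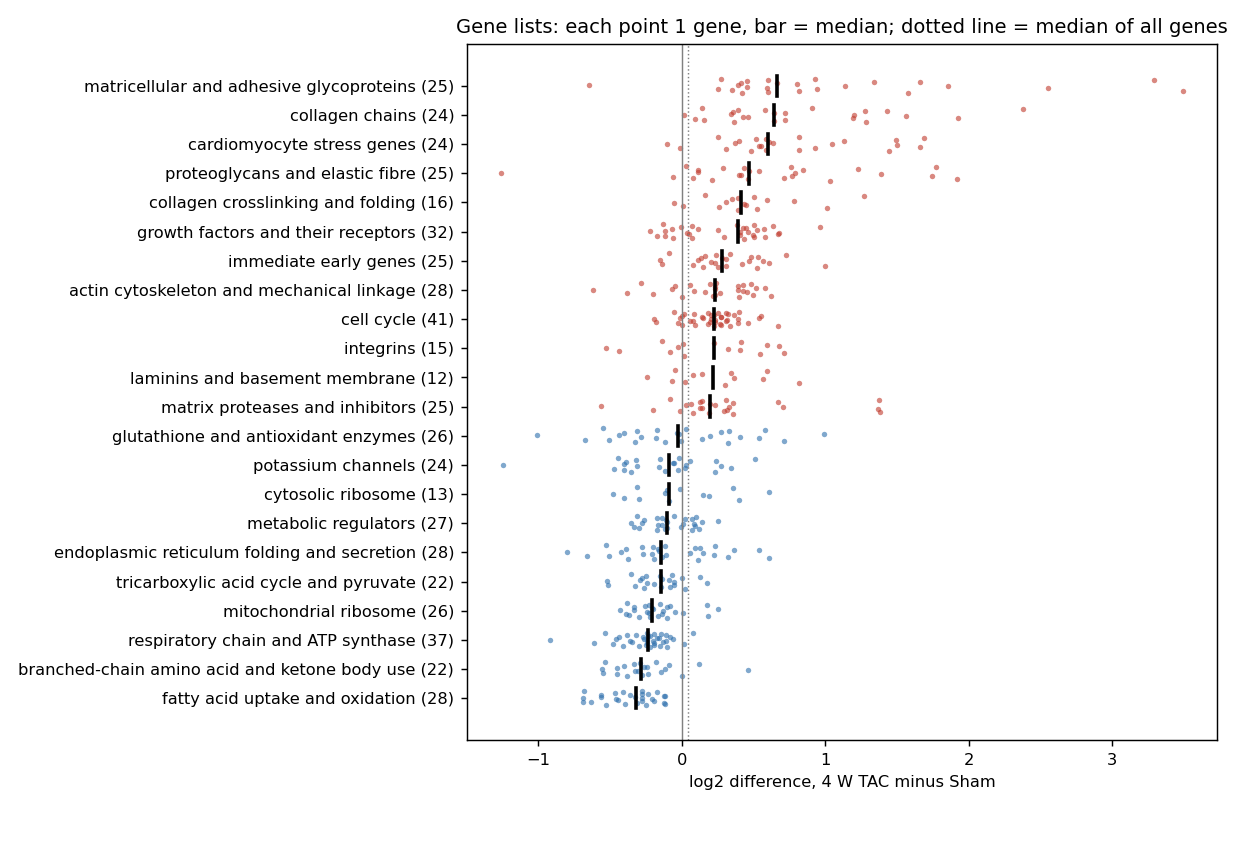
Log2 difference of 4 W TAC minus Sham (horizontal axis) for the genes of 22 lists with at least 12 measured genes (number in brackets), the 12 lists with the highest medians above and the 10 with the lowest below. Each point is a gene, the black bar is the list's median and the dotted line is the median of all genes at 0.04; the matrix and stress lists spread far to the right, whereas the genes of fatty acid oxidation all lie left of 0 (median -0.32).

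Most genes known to be turned on in the loaded heart muscle were above Sham. Of 24 measured stress genes, 22 had a positive difference (median 0.60), 14 passed at an unadjusted p above Sham and 0 below it. The list shares members with others, among them Ccn2 with the matricellular list and Meox1 with the fibroblast markers. Acta1, the skeletal alpha-actin of the fetal heart, had 12.24 and 12.60 in 4 W TAC and 10.49 and 10.98 in Sham (3.22-fold, log2 standard error 0.24). Nppa, the precursor of atrial natriuretic peptide, had 12.69 and 12.76 in 4 W TAC and 10.86 and 11.61 in Sham (2.81-fold), and Nppb, the precursor of brain natriuretic peptide, had 10.87 and 11.22 in 4 W TAC and 9.87 and 10.36 in Sham (1.91-fold). For these 3 genes the Sham mice differed from each other by 0.49 to 0.75 log2 units and the 4 W TAC mice by 0.07 to 0.36. Ankrd1, a stretch-responsive ankyrin repeat protein of the sarcomere, was already among the highest signals in Sham, with 12.62 and 12.90 in 4 W TAC and 12.14 and 12.11 in Sham (1.55-fold). Sprr1a, a small proline-rich protein of stressed cells, had 6.54 and 6.57 in 4 W TAC and 4.96 and 5.15 in Sham, and Uchl1, a ubiquitin hydrolase, had 7.25 and 7.09 in 4 W TAC and 6.01 and 6.07 in Sham. Meox1, a homeobox factor known also from activated fibroblasts (2.72-fold), and Fhl1, a LIM protein that senses stretch (2.06-fold), were also over 2-fold above Sham. Enah (0.82), Synpo2l (0.82), Xirp1 (0.59) and Nrap (0.59), which link actin to the Z-disc and the intercalated disc, had smaller log2 differences. Fhl2 and Tnni1, the slow skeletal troponin I, had differences of -0.01 and -0.10.

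The upstream sequences of Thbs4, Cilp, Acta1, Nppa, Nppb and Ankrd1, load-responsive genes that were all above Sham, were searched for motifs of factors known from such genes, and the 4 with a match are shown. Each is the 250 bases before the annotated start of the gene (RefSeq, GRCm38.p6), read 5′ to 3′ on the strand of the gene. Capitals mark the core of the MCAT element, CATTCC or its reverse complement GGAATG, which TEAD factors can bind, and the CArG box, the element of serum response factor.
Thbs4, chr13:92794819-92795068, minus strand: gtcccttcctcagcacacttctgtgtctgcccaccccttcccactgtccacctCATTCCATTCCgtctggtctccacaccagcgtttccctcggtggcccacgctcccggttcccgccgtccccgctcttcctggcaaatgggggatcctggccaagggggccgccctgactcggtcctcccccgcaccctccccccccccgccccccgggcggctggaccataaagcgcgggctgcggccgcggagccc
Ankrd1, chr19:36119845-36120094, minus strand: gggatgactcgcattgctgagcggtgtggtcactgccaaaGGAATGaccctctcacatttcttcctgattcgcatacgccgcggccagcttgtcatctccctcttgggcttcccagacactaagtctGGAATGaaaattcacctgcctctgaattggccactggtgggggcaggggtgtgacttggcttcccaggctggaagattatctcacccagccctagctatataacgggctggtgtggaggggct
Acta1, chr8:123894776-123895025, minus strand: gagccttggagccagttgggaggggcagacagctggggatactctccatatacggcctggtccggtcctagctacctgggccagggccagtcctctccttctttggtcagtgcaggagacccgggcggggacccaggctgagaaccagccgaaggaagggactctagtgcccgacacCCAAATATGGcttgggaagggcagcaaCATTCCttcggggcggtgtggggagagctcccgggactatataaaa
Nppb, chr4:147985650-147985899, plus strand: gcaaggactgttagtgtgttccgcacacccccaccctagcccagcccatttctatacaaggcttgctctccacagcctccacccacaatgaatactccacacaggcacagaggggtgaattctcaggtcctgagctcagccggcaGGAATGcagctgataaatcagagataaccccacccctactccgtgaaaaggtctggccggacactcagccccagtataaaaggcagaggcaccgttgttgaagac
The MCAT core was found at 197 and 192 bases before the start in Thbs4, where both matches share a base, at 210 and 123 bases in Ankrd1, at 46 bases in Acta1 and at 105 bases in Nppb. The CArG box was found in Acta1, 73 bases before the start. Of 32851 windows of the same length upstream of annotated starts, 12.6% held at least 1 MCAT core, 1.02% at least 2, and 1.47% a CArG box, each searched on both strands. In the windows of Nppa and Cilp neither motif was found. A match describes the letters of the window and is not a binding site.

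Genes of the contractile apparatus and of calcium handling lay close to Sham. The 20 sarcomere and Z-disc genes had a median of 0.18, and only Des, desmin, passed at an unadjusted p (11.64 and 12.00 in 4 W TAC and 11.33 and 11.24 in Sham). Among 27 calcium handling genes (median -0.02), Sln, sarcolipin, an inhibitor of the calcium pump of the sarcoplasmic reticulum, had 6.04 and 6.36 in 4 W TAC and 5.34 and 5.31 in Sham (1.83-fold) and passed at an unadjusted p, as did Fkbp1b at a low signal (0.68). The pump itself, Atp2a2, had 12.73 and 12.84 in 4 W TAC and 12.98 and 12.84 in Sham, and the groups shared the value 12.84. Of 24 potassium channel genes, 16 were below Sham (median -0.09). Kcnv2, a silent channel subunit, had 4.68 and 4.61 in 4 W TAC and 6.05 and 5.73 in Sham (2.37-fold lower), and Kcnip2, the subunit of the transient outward current, had 9.18 and 9.53 in 4 W TAC and 9.80 and 9.80 in Sham (log2 difference -0.45) and did not pass. Kcne1, a subunit of the slow delayed rectifier, was above Sham (0.51). Scn4b, a sodium channel beta subunit, had 7.07 and 6.88 in 4 W TAC and 7.81 and 7.44 in Sham. The medians of these lists moved when mice were left out. That of the sarcomere list was 0.075 without the second 4 W TAC mouse, 0.11 without the second Sham mouse, 0.29 without the first Sham mouse and 0.365 without the first mouse of both groups. That of calcium handling turned to 0.035 without the first Sham mouse, 0.05 without the first 4 W TAC mouse and 0.14 without both, and was -0.095 without the second Sham mouse and -0.055 without the second 4 W TAC mouse. That of potassium channels turned to 0.02 without the first Sham mouse and 0.085 without the first mouse of both groups, and was -0.04 without the first 4 W TAC mouse, -0.22 without the second Sham mouse and -0.20 without the second 4 W TAC mouse.

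Several secreted growth factors and Wnt modulators were above Sham. In the TGF-beta, activin and BMP list (30 measured, median 0.18), the ligands Tgfb2 (6.79 and 7.27 in 4 W TAC and 5.90 and 5.84 in Sham) and Tgfb3 (7.58 and 8.06 in 4 W TAC and 7.03 and 6.85 in Sham) and the follistatin-like protein Fstl1 (8.67 and 9.62 in 4 W TAC and 7.93 and 7.77 in Sham) passed at an unadjusted p. In the Wnt list (27 measured, median 0.18) the 5 genes that passed were secreted inhibitors or modulators: Sfrp2, Frzb (2.92-fold), Sfrp1 (1.68-fold), Dkk3 (1.64-fold) and Sfrp4 (1.38-fold). Wif1, also a secreted inhibitor, had the lowest difference of the list (-0.395) and did not pass. The groups were apart for 11 genes of the list above Sham and for 3 below it. Over all genes the groups were apart above Sham for 17.3% and below it for 12.9%. Of 32 growth factors and receptors, 24 were above Sham (median 0.40), with the insulin-like growth factor binding proteins Igfbp6 (0.97) and Igfbp7 (0.68), the EGF-like ligand Hbegf (0.67) and the PDGF receptor Pdgfrb (0.64) passing. Edn3, an endothelin, had 5.92 and 6.31 in 4 W TAC and 5.10 and 5.37 in Sham, and Aplnr, the apelin receptor, had 7.72 and 8.13 in 4 W TAC and 7.13 and 6.96 in Sham, whereas its ligand Apln had 5.46 and 5.43 in 4 W TAC and 6.15 and 5.77 in Sham. Adm, the vasodilator adrenomedullin, had 4.53 and 4.50 in 4 W TAC and 6.16 and 6.04 in Sham, 3.0-fold lower in 4 W TAC at a signal below the median of all rows. Angpt1, the ligand of the endothelial receptor Tie2, had a log2 difference of -0.57. Without the second 4 W TAC mouse the medians of the Wnt list and of the growth factors were 0.05 and 0.195, and that of the TGF-beta list was 0.325 without the first Sham mouse and 0.38 without the first mouse of both groups.

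Most lists of mitochondrial energy metabolism had medians below Sham by small amounts. The list of mitochondrial carriers and uncoupling proteins, which includes creatine kinases, did not. Of its 26 genes 15 were above and 11 below Sham (median 0.035, and -0.14 to 0.215 when mice were left out). At an unadjusted p 2 of them passed below Sham, Ucp3 among them, and 0 above it. All 28 measured genes of fatty acid uptake and oxidation had a negative difference, with a median of -0.32 against 0.04 over all genes, and 7 passed at an unadjusted p. Fewer of the 28 were below 0 when mice were left out: 26 without the first Sham mouse, 23 without the first 4 W TAC mouse, 27 without the second 4 W TAC mouse and 21 without the first mouse of both groups. Eci1, an isomerase of unsaturated fatty acids, had 10.25 and 9.80 in 4 W TAC and 10.70 and 10.73 in Sham (log2 difference -0.69). Slc27a1, a fatty acid transporter, had 8.14 and 8.41 in 4 W TAC and 9.07 and 8.85 in Sham, and Acaa2, the thiolase of the last step of beta-oxidation, had 10.56 and 10.59 in 4 W TAC and 11.40 and 11.11 in Sham. Etfb, a subunit of the flavoprotein that takes up the electrons, had 10.60 and 10.72 in 4 W TAC and 11.20 and 11.25 in Sham. Cpt2, an enzyme that acts in the transport of acyl groups into the mitochondrial matrix, had 9.70 and 9.01 in 4 W TAC and 10.08 and 9.90 in Sham and did not pass. Cd36, the main fatty acid transporter, had a log2 difference of -0.24. On each array relative to the Sham mean, the median of the 28 genes was -0.36 and -0.35 in 4 W TAC and 0.06 and -0.06 in Sham.

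Of 37 respiratory chain and ATP synthase genes, 35 were below Sham (median -0.24) and 3 passed at an unadjusted p: Ndufa1, Atp5pb of the ATP synthase (6.58 and 6.60 in 4 W TAC and 7.28 and 7.13 in Sham) and Uqcrfs1, the iron-sulfur subunit of complex III (8.51 and 8.41 in 4 W TAC and 9.09 and 8.90 in Sham). The tricarboxylic acid cycle and pyruvate genes had a median of -0.15 (18 of 22 below Sham), with Suclg1, of succinyl-CoA ligase, at -0.52 and Pdhb, of pyruvate dehydrogenase, at -0.52. Branched-chain amino acid and ketone body genes had a median of -0.28 (19 of 22 below Sham). Bckdhb, of the branched-chain dehydrogenase, had 7.47 and 7.75 in 4 W TAC and 8.26 and 8.07 in Sham, whereas Bdh1, the first enzyme of ketone body use, was the largest positive member of the list, with 8.59 and 8.94 in 4 W TAC and 8.36 and 8.24 in Sham, and did not pass. Of the 26 genes of the mitochondrial ribosome, 22 were below Sham (median -0.21) and 0 passed at an unadjusted p. Without the first 4 W TAC mouse the tricarboxylic acid cycle median was -0.02 and without the first mouse of both groups 0, whereas without the second 4 W TAC mouse it was -0.245. The branched-chain and ketone body median was -0.19 without the first Sham mouse, -0.16 without the first 4 W TAC mouse and -0.065 without both, and that of the mitochondrial ribosome was -0.11 without the first Sham mouse and -0.105 without both. Glycolysis and glucose transport genes were evenly split (12 above and 13 below Sham), and Pfkp, a phosphofructokinase, was the one that passed (0.68). Of 27 metabolic regulators 0 passed at an unadjusted p in limma, and Ppargc1a, a coactivator of mitochondrial genes, had 9.15 and 8.95 in 4 W TAC and 9.58 and 9.12 in Sham with overlapping groups.

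Of 28 genes of endoplasmic reticulum folding and secretion, which include chaperones, translocon and vesicle coat proteins and stress transcription factors, 17 were below Sham (median -0.15). The median was -0.10 without the first Sham mouse, -0.065 without the first 4 W TAC mouse and 0 without both. Manf, a secreted protein induced by unfolded proteins, had 7.52 and 7.06 in 4 W TAC and 7.87 and 8.31 in Sham, Dnajb9, a cochaperone, had 8.64 and 9.19 in 4 W TAC and 9.60 and 9.55 in Sham, and Pdia6, a disulfide isomerase, had 8.26 and 8.63 in 4 W TAC and 8.97 and 8.98 in Sham. These 3 passed at an unadjusted p, and Hspa5, the main chaperone of this compartment, had 9.38 and 9.98 in 4 W TAC and 10.22 and 10.15 in Sham and did not. Ssr1, of the translocon, was above Sham (0.61). Immediate early genes were mostly above Sham (22 of 25, median 0.28), with Egr1 at 7.41 and 7.12 in 4 W TAC and 6.25 and 6.29 in Sham (1.99-fold), Egr2 at 0.73 and Btg2 at 0.57. In the list of glutathione and antioxidant enzymes 4 genes passed in each direction: Nox4, an oxidase that makes hydrogen peroxide, had 5.89 and 6.53 in 4 W TAC and 5.60 and 4.84 in Sham, and Gstm7, a glutathione transferase, had 7.57 and 7.87 in 4 W TAC and 8.41 and 8.38 in Sham.

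Immune and cell cycle genes had small positive medians. Of 41 cell cycle genes, 35 were above Sham (median 0.23), and Ccnd2, a D-type cyclin, and Mcm3, a replication helicase subunit, passed at an unadjusted p (0.54 and 0.67). Top2a, a marker of dividing cells, had 4.26 and 5.19 in 4 W TAC and 4.35 and 4.18 in Sham, with overlapping groups. The cell cycle median was 0.06 without the second 4 W TAC mouse, 0.35 without the first and 0.40 without the first mouse of both groups. Of 13 macrophage markers 10 were above Sham (median 0.29) and 0 passed at an unadjusted p in limma; Adgre1, a defining surface antigen of mouse macrophages, had 6.14 and 6.84 in 4 W TAC and 5.90 and 5.45 in Sham. Without the second 4 W TAC mouse the macrophage median was 0.16. In the complement and chemokine list 3 genes passed above Sham, Cxcr4 (0.68), C1qc (0.59) and Serping1 (0.54), and Ccl11 below it. Ptgs2, the inducible cyclooxygenase, had 4.78 and 5.24 in 4 W TAC and 4.12 and 4.10 in Sham.

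Among regulators of splicing and polyadenylation, Rbfox1, a splicing factor of heart, muscle and brain, had 7.13 and 7.09 in 4 W TAC and 7.91 and 7.52 in Sham (log2 difference -0.61, standard error 0.23, limma adjusted p = 0.853). It was the one of 35 measured genes that passed at an unadjusted p, where 2.42% of all genes passed above Sham and 1.39% below it. Rbfox2, the paralog of Rbfox1, had 8.43 and 8.72 in 4 W TAC and 8.62 and 8.33 in Sham, with overlapping groups. Ptbp1, a splicing repressor, had a log2 difference of 0.35, the poly(A)-binding protein gene Pabpc1 of 0.38, and Rbmxl1 of -0.31. The cleavage stimulation factor genes Cstf1, Cstf2 and Cstf3 had 0.41, 0.28 and -0.13, and none of these 6 passed.

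The time points were compared directly, since both share the Sham arrays. Between 4 W TAC and 1 W TAC, 0 of 23332 rows (0%) had an adjusted p under 0.05 in limma, and 1521 rows had an unadjusted p under 0.05. Among genes, 2.46% passed at an unadjusted p with the higher signal at 4 W TAC and 3.33% with the lower one. Of the 15 genes farthest above Sham, 4 were below their 1 W TAC signal at an unadjusted p (Postn, Sfrp2, Col8a1 and Mfap5) and 2 were higher, Angptl7 and Dio2. Angptl7 had 7.55 and 8.97 at 4 W TAC and 6.30 and 6.40 at 1 W TAC, and Dio2 had 6.23 and 6.97 at 4 W TAC and 5.32 and 5.04 at 1 W TAC. The 1 W TAC values of both genes were within or next to the range of the Sham arrays. Sln had 6.04 and 6.36 at 4 W TAC and 5.11 and 4.71 at 1 W TAC, below both Sham arrays. Named after their values were seen, Tnmd, tenomodulin, a membrane protein of tendon, had 4.96 and 5.03 in Sham, 5.50 and 5.24 at 1 W TAC and 6.03 and 6.20 at 4 W TAC. Of low-signal genes, also named after their values were seen, Chodl, a lectin-like membrane protein, had 3.08 and 3.28 in Sham, 3.74 and 3.33 at 1 W TAC and 4.50 and 5.22 at 4 W TAC, and Sprr2d had 1.94 and 2.12 in Sham, 2.33 and 1.90 at 1 W TAC and 3.71 and 3.52 at 4 W TAC.

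By list, the 24 collagen genes lay mostly below their 1 W TAC signal at 4 W TAC, and 15 of them passed below and 0 above at an unadjusted p (median log2 difference -0.76). Col3a1, for example, had 9.0 and 9.77 at 4 W TAC and 10.83 and 11.41 at 1 W TAC. Cell cycle genes passed below 1 W TAC for 18 of 41 and above it for 1, Ccnd2, which had 10.58 and 10.79 at 4 W TAC and 10.05 and 10.02 at 1 W TAC. Macrophage markers passed below 1 W TAC for 7 of 13 genes and lysosome genes for 12 of 26. The stress genes were divided: Sprr1a had 6.54 and 6.57 at 4 W TAC and 10.17 and 11.52 at 1 W TAC, 19.6-fold lower at 4 W TAC, whereas Acta1 had 12.24 and 12.60 at 4 W TAC and 12.08 and 12.25 at 1 W TAC. Ankrd1 had 12.62 and 12.90 at 4 W TAC and 12.64 and 12.57 at 1 W TAC. The metabolic lists had positive medians between the time points, of 0.41 for fatty acid oxidation (5 of 28 genes passing above 1 W TAC and 0 below) and of 0.39 for branched-chain amino acid and ketone body use (7 of 22 above and 0 below). Aqp1, the water channel of endothelium, had 9.02 and 8.98 in Sham, 7.99 and 7.84 at 1 W TAC and 9.04 and 9.45 at 4 W TAC.

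**Figure D4:**
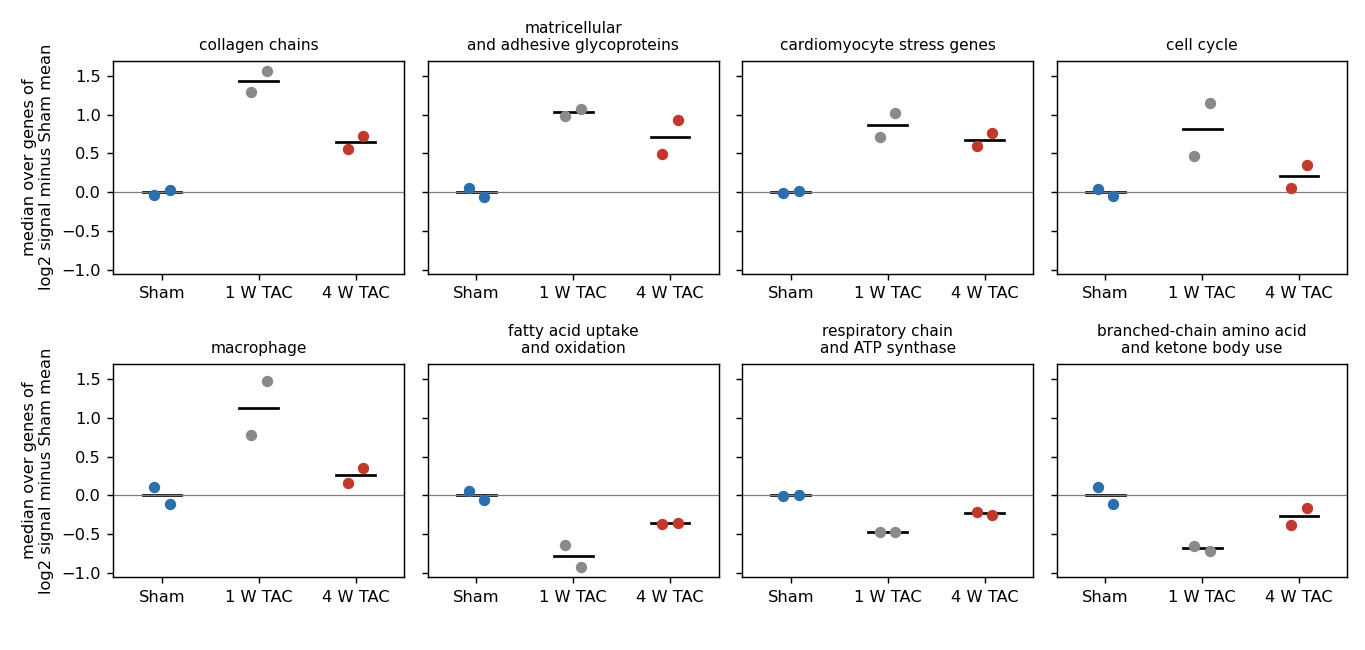
Median over the genes of a list of the log2 signal minus the Sham mean of the gene (vertical axis), for 8 lists on each of the 2 arrays of Sham, 1 W TAC and 4 W TAC (points), with the group mean as a bar. In these 8 lists the 4 W TAC mean lies between the Sham and 1 W TAC means.

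Markers of other cell types and the spread within groups are given because they touch these results. Fibroblast markers had a median of 0.29 (12 of 14 above Sham), with Pi16 (8.04 and 8.33 in 4 W TAC and 6.88 and 7.01 in Sham) and Cd34 (0.53) passing at an unadjusted p beside the matrix gene Mfap4 and Meox1, and the log2 of their summed signal was 12.25 and 12.60 in 4 W TAC and 11.97 and 11.84 in Sham. Their median was 0.47 without the first 4 W TAC mouse and 0.525 without the first mouse of both groups. The share of the fibroblast markers in the matrix differences was not tested. Of 12 smooth muscle and pericyte markers 5 were above and 7 below Sham (median -0.06, and 0.07 without the first Sham mouse), and the log2 of their summed signal was 12.56 and 12.44 in 4 W TAC and 12.63 and 12.42 in Sham. The pericyte receptor Pdgfrb (0.64) and the proteoglycan Cspg4 (0.47) passed above Sham and the smooth muscle gene Tagln (-0.62) below it at an unadjusted p, and Acta2, smooth muscle actin, had -0.38. Of the 2 erythroid genes, Alas2 had a log2 difference of -0.74 and Slc4a1 of -0.23, and neither passed. Of 9 atrial markers 6 were above and 3 below Sham (median 0.285, and 0.07 to 0.45 when mice were left out). The log2 of their summed signal was 12.96 and 13.12 in 4 W TAC and 11.72 and 12.18 in Sham. On each of these arrays most of the sum came from Nppa alone. Nppa, Sln and Dkk3, described above with other lists, are also in this list and passed above Sham at an unadjusted p, and Adm passed below it. Myl7, another atrial marker, varied within groups, with 7.77 and 8.92 in 4 W TAC and 7.59 and 8.06 in Sham. The log2 of the summed signal of 8 white adipocyte markers was 9.01 and 8.39 in 4 W TAC and 9.57 and 8.26 in Sham, higher in the first mouse of each group. For 10 brown adipocyte markers it was 10.21 and 10.23 in 4 W TAC and 10.68 and 10.18 in Sham, so that it was higher in the first mouse for Sham and nearly equal for 4 W TAC, where the second mouse had the higher signal for 5 of 10 genes. Single genes of these lists differed more: Ucp1, the uncoupling protein of brown fat, had 6.35 and 3.96 in 4 W TAC and 8.21 and 4.19 in Sham, and Adipoq, adiponectin, had 5.29 and 3.71 in 4 W TAC and 5.27 and 3.53 in Sham. Car3, a carbonic anhydrase of fat and muscle, had 7.40 and 6.15 in 4 W TAC and 8.64 and 5.59 in Sham. In the brown list, Dio2, described above, passed above Sham at an unadjusted p and 1 low-signal gene below it (log2 difference -1.28). Of 9 adipose lipid synthesis markers (median -0.16), all 9 had the higher signal in the first Sham mouse. The second 4 W TAC mouse had the higher signal for 3 of them. The median of the fatty acid list was -0.26 without the first Sham mouse and -0.23 without the first mouse of both groups. The share of fat cells in the differences of the fatty acid list was not tested.

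**Figure D5:**
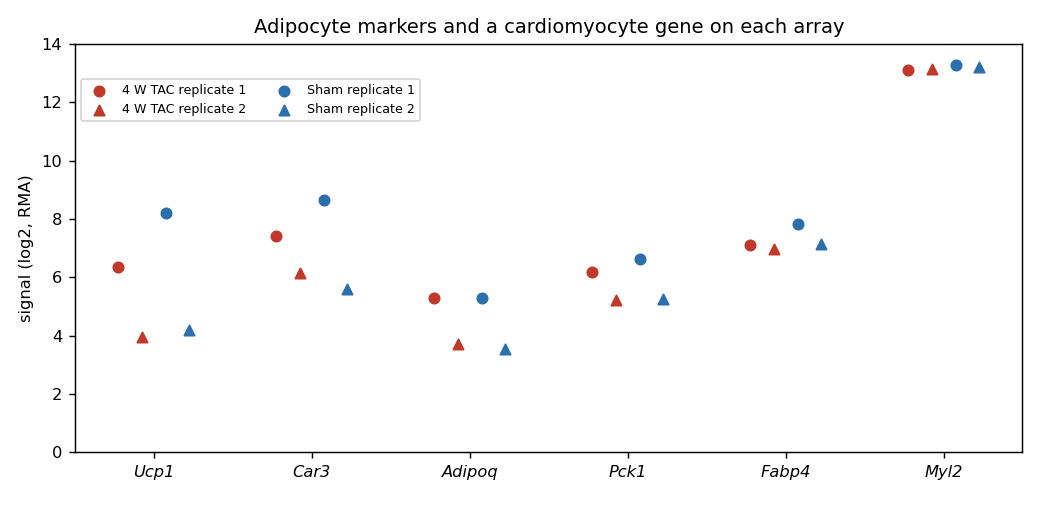
Log2 RMA signal (vertical axis) of 5 adipocyte markers and of the cardiomyocyte gene Myl2 on each 4 W TAC array (red) and each Sham array (blue), with a circle for replicate 1 and a triangle for replicate 2. Ucp1, Car3, Adipoq and Pck1 are higher in the first 4 W TAC mouse and in the first Sham mouse than in the second mouse of the same group, while Myl2 lies near 13 on all 4 arrays.

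The 4 W TAC mice differed from each other in matrix genes. The second mouse had the higher signal for 22 of 24 collagen chains, 22 of 25 matricellular genes and 16 of 16 crosslinking and folding genes, where it had the higher signal for 56.3% of all genes. The median of the matricellular list relative to the Sham mean was 0.49 in the first and 0.93 in the second 4 W TAC mouse, against 0.06 and -0.06 in the Sham mice. With 2 mice per group, no exact permutation test of 1 gene can go below p = 0.333, two-sided, and the number of arrays limits the precision of every value above.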

How the data were processed

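Total RNA of the left ventricle was hybridised to Affymetrix GeneChip Mouse Exon 1.0 ST arrays, 1 mouse per array, for 4 W TAC, 1 W TAC and Sham mice (2 each). It was extracted with Trizol per the labels and with a column kit per the methods of the paper. The authors made the deposited log2 signals with RMA in Affymetrix Expression Console (version not given in the sources used here), which subtracts background, equalises the distributions of the arrays and summarises the probes of each transcript cluster, so a shift common to all genes is removed and weak signals are compressed. The paper's filter on detection above background was not repeated.

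Rows were joined to symbols by the annotation of the array (1019 rows had several symbols and 7317 none), older symbols were updated through RefSeq (GRCm38.p6), and a gene with several rows (135 genes) took the row with the highest mean. In R 4.3.3 with limma 3.58.1, the 6 arrays were fitted with a mean for each group (3 residual degrees of freedom, prior 2.68 degrees of freedom, prior SD 0.219), and Benjamini-Hochberg adjustment of p values covered all 23332 rows. The analysis was tested on simulated arrays. The 43 pathway lists and 15 marker lists (1140 of 1403 listed genes matched), the members and the tests were chosen with earlier results of these data known. Named genes are the 15 highest and 15 lowest differences among genes with the groups apart and a mean signal at or above the median. Also named are list members with large differences or that are well known, the genes whose expression the paper discusses, and some of the markers. Some lists, and some members with the largest difference of their list, are not described. Genes outside these rules are named as chosen after their values were seen. Myh6, Myh7 and Atp2b1, among others, were not matched to a row with 1 symbol and are not analysed here. On how the arrays of a group relate to each other, the labels give only a separate replicate number for each, so p values measure the spread between these arrays. The labels name no batch. The main fit did not pair samples by replicate number. Plots were made in Python 3.11.15 with matplotlib 3.10.9.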

Additional observations from a re-analysis of the deposited data

Results flagged for a closer look

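For 6 of the 154 named genes the 4 W TAC and 1 W TAC arrays lay on opposite sides of both Sham arrays, which drew attention to them. Sln, the sarcolipin gene, had a log2 difference of 4 W TAC minus Sham of 0.88, with 5.34 and 5.31 in Sham, 5.11 and 4.71 at 1 W TAC and 6.04 and 6.36 at 4 W TAC. Ccnd2, a cyclin, had a difference of 0.54 at 4 W TAC, with 10.05 and 10.02 at 1 W TAC, just below the Sham arrays at 10.22 and 10.07. Aqp1, the endothelial water channel, had a difference of 0.25 at 4 W TAC, and its 1 W TAC arrays (7.99 and 7.84) were more than a log2 unit below Sham (9.02 and 8.98). Rbmxl1 was the one gene that was lower at 4 W TAC (difference -0.31, 6.82 and 6.72 against 7.30 and 6.86 in Sham) and higher at 1 W TAC (7.40 and 7.35). Tfrc, the transferrin receptor, and Cpxm2, a secreted carboxypeptidase-like protein, were named after their values were seen. The count of 6 therefore includes genes chosen by their values and cannot be set against the share over all genes. Tfrc had a difference of 0.97 at 4 W TAC, with 8.27 and 7.54 in Sham, 6.82 and 7.19 at 1 W TAC and 8.58 and 9.16 at 4 W TAC. Cpxm2 had a difference of 0.58 at 4 W TAC, with 7.89 and 8.02 in Sham, 7.26 and 7.39 at 1 W TAC and 8.49 and 8.57 at 4 W TAC. The difference between 4 W TAC and 1 W TAC itself was tested with limma, and its adjusted p was 0.531 for Sln, Aqp1, Tfrc and Cpxm2, 0.626 for Ccnd2 and 0.705 for Rbmxl1, so none passed. Among all 14860 genes, 126 (0.848%) were above Sham at 4 W TAC and below it at 1 W TAC on all arrays, and 98 (0.659%) the other way.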

How the results depend on the processing

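With 2 mice per group no adjusted call was made, and the count of 0 rows for 4 W TAC against Sham held in the fits of only the 4 arrays, with centred or again quantile-normalized arrays, with a trended prior, with the methods' t-test after Benjamini-Hochberg adjustment and without any 1 mouse (0 to 0). When the rows tested were fewer, 1 row passed among rows with 1 gene symbol (Thbs4, 3.29, limma adjusted p = 0.00585) and 2 among rows at or above the median signal (Thbs4 and a row with no symbol), and between the TAC groups 2 rows passed in both settings (Sprr1a and Tnc) and 1 row, with no symbol, with centred arrays. Rows at an unadjusted p under 0.05 numbered 861 among rows with 1 gene symbol (539 higher and 322 lower), 723 at or above the median signal, and 326 by the methods' t-test with its fold limit, which left out 6 rows without spread. They numbered 1144 to 1976 when mice were left out, with 33.1% to 64.1% of them higher. The 575 rows past 2-fold with the groups apart became 114 among rows with 1 gene symbol, 113 at or above the median signal, and 871 to 1553 without 1 or 2 mice, where a lone array makes groups apart more easily. Leaving out mice moved the medians of the matricellular list between 0.49 and 1.01, of the stress list between 0.60 and 0.82, of the proteoglycan list between 0.44 and 0.71 (0.76 at or above the median signal), of the collagen list between 0.56 and 0.73, of the fatty acid list between -0.39 and -0.23 and of the respiratory chain list between -0.29 and -0.21, all with the same sign. The widest move, to 0.93 for the matricellular list, came without the first 4 W TAC mouse, and to 1.01 without the first mouse of both groups. Of 58 lists, 33 kept the sign of the median in every alternative.

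Of 154 named genes, 142 kept their sign in every alternative. The other 12 had small differences or varied within groups, and without 1 or 2 mice ranged from -3.05 to 0.96 for Ucp1, -1.86 to 1.18 for Car3, -0.93 to 0.44 for Pck1, -0.77 to 0.97 for Adipoq, -0.055 to 1.09 for Myl7, -0.40 to 0.14 for Tnni1, -0.38 to 0.28 for Cstf3, -0.045 to 0.39 for Rbfox2, -0.12 to 0.10 for Fhl2, -0.09 to 0.12 for Col4a6 and -0.005 to 1.01 for Top2a. Quantile normalization turned Fhl2 to 0.011 and Mb to 0.018.

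The replicate numbers are shared by the groups in the labels. Over all rows, the deviations of the first mice from their group means correlated at -0.17 (4 W TAC and Sham), 0.08 (4 W TAC and 1 W TAC) and -0.15 (1 W TAC and Sham). Such correlations cannot decide whether mice with the same number were handled together. With the replicate number as a block 0 rows passed the adjusted test and 1196 an unadjusted p under 0.05, and with the Sham numbers crossed, chosen after seeing the data, 0 and 1880 rows. The cause of the changes was not tested.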
